A study of Bombyx mori with 4 samples.

Results

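The members described here are short protein-coding gene models of the library to which RNA fragments bound by BmVasa in silkworm BmN4 cells were mapped. No minimum of reads was required of them. They were chosen by annotation as protein-coding, by a length below 500 nt and by a mean over the groups below 100 RPM, that is, reads scaled to the genome-mapped reads of each library. In all, 979 of 18596 sequences met this rule, out of 14300 protein-coding ones. Length and mean level therefore selected the members and are given as a description, whereas the change between the groups was not used. RNA fragments crosslinked to BmVasa by UV light were recovered with an antibody and sequenced (FAST-iCLIP) in 4 samples of BmN4, a line derived from Bombyx mori ovary. Spn-E KD cells were electroporated with siRNA against Spindle-E and Luc KD cells, the control, with siRNA against luciferase, so that both groups carry a transient siRNA in the same line. Each group had 2 replicates, which were merged by the authors, and every value below thus comes from 1 pooled library per group with no replicate check.

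Vasa is a DEAD-box RNA helicase of germ cells and a component of nuage, the granule beside the nucleus in which PIWI proteins guided by piRNAs cleave transposon transcripts. In the silkworm the PIWI proteins Siwi and Ago3 act there, and BmVasa releases cleaved RNA from Siwi. Spindle-E is another helicase of this pathway, and without it less Siwi is loaded with piRNAs. Reads on a protein-coding sequence depend on how much of its mRNA is present, on its length and on how much of it is bound. Fewer cells with an mRNA, less mRNA per cell and less binding per mRNA cannot be told apart in these libraries.

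Depth was similar, as 1059323 reads mapped to the genome in Spn-E KD and 1012269 in Luc KD. Protein-coding sequences received 156672 sense reads in Spn-E KD and 180265 in Luc KD. A single read was worth 0.944 RPM in Spn-E KD and 0.988 RPM in Luc KD. The table gives no gene symbols and 0 members matched the RefSeq gene table, so members are named by identifier, without function or sequence. Spn-E itself and markers of the cell line were for this reason not analysed here, and the knockdown was not checked.

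The shortest member, KWMTBOMO08061, was 253 nt long and had 0 reads in Spn-E KD and 2 in Luc KD. The median length was 432 nt. Most members lay toward the upper limit, with 654 of 400 nt or more, 296 of 300 to below 400 nt and 29 below 300 nt. Lengths that were multiples of 3 made up 35.8% of the members and 33.7% of all protein-coding sequences. At the length limit, 4 members were 1 nt below it, with a median of 2.83 RPM in Spn-E KD and 1.98 RPM in Luc KD. KWMTBOMO16321, the most covered of the 4, had 8 reads in each library, whereas KWMTBOMO05802 and KWMTBOMO12366 had 0 in each. The 6 sequences of 500 nt, outside the limit, had a median of 0.47 RPM in Spn-E KD and 1.48 RPM in Luc KD. KWMTBOMO13740, which was among these, had 3 reads in each library. The median RPKM, which is RPM per kb of length, was similar on both sides of the limit. It was 2.00 in Spn-E KD and 2.07 in Luc KD for the 379 members of 450 nt or more, and 1.86 in Spn-E KD and 1.94 in Luc KD for the 383 sequences of 500 to below 550 nt under the same RPM limit.

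Reads were absent from many of the short sequences. In Spn-E KD, 469 of 979 members had 0 reads, or 47.9% (95% Wilson interval 44.8 to 51.0). In Luc KD, 452 had none, or 46.2% (43.1 to 49.3). Both libraries lacked reads for 322 members, or 32.9% (30.0 to 35.9). These intervals treat each member as a separate draw and do not measure error in the read counts. Reads were found in Spn-E KD alone for 130 members, in Luc KD alone for 147 and in both for 380. A single read accounted for 81 of the members seen in Spn-E KD alone and for 102 of those seen in Luc KD alone. The median was 1 read in each library. A count of 0 allows up to 3 reads, or 2.83 RPM in Spn-E KD and 2.96 RPM in Luc KD, and 755 members (77.1%) had no more than 3 reads in either. For these members a change was not detectable at this depth.

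Few members were unseen in one library and above that limit in the other. With 0 reads in Luc KD, 5 members had over 3 reads in Spn-E KD, led by KWMTBOMO13893 (480 nt) with 6. With 0 reads in Spn-E KD, 9 members had over 3 reads in Luc KD, led by KWMTBOMO07452 (370 nt) with 7. These 14 lay below the level at which sequences were tested, and both identifiers were picked after their values were seen. Neither these counts nor those of members seen in a single library were taken in the same way for other sequences. They are therefore not read as particular to the members.

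The share of sequences without reads was lower in the longer classes. In Spn-E KD it was 65.5% of members below 300 nt, 52.7% of those of 300 to below 400 nt and 45.0% of those of 400 nt or more. In Luc KD these shares were 51.7%, 54.4% and 42.2%, so that the order held between the last class and the others only. Among longer protein-coding sequences under the same RPM limit, the share was 28.3% in Spn-E KD and 26.9% in Luc KD at 500 to below 1000 nt. It was 2.52% in Spn-E KD and 1.63% in Luc KD at 4000 nt or more. Per kb, summed reads on the short set came to 5.63 RPM in Spn-E KD and 5.98 in Luc KD. The values per kb were 5.97 in Spn-E KD and 6.77 in Luc KD at 500 to below 1000 nt, and 2.98 in Spn-E KD and 3.80 in Luc KD at 4000 nt or more. A limit in RPM binds harder per kb on a longer sequence, so these values describe the sets as chosen and carry no test.

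**Figure D1:**
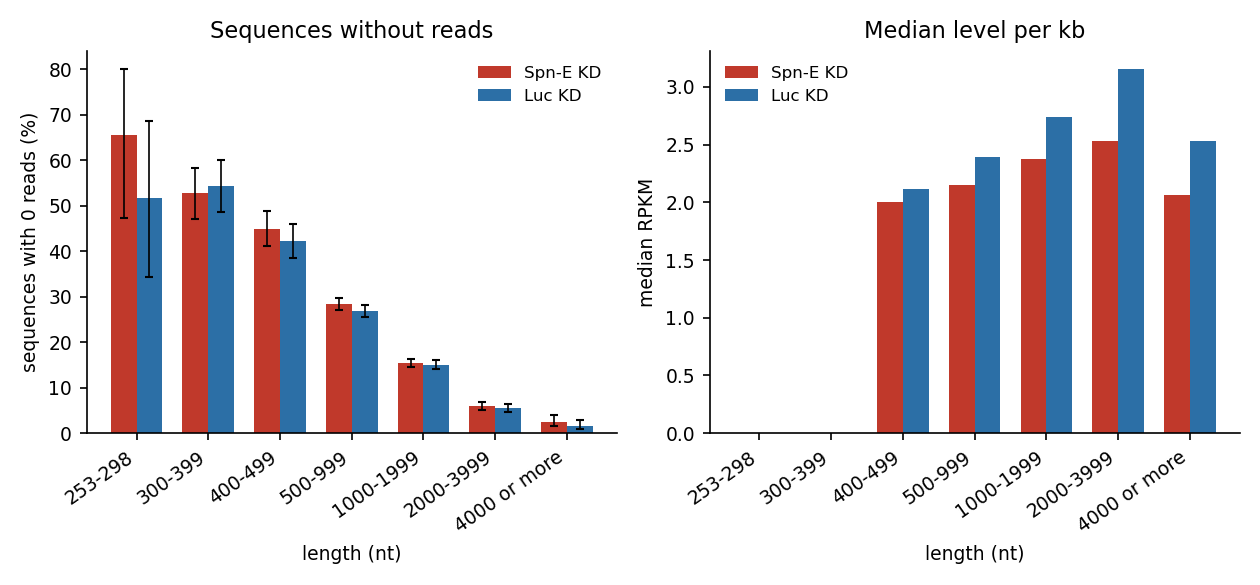
Share of protein-coding sequences with 0 reads (left, %, with 95% Wilson intervals) and median RPKM (right) by length in nt, for sequences below a mean of 100 RPM, in Spn-E KD and Luc KD. The first 3 length classes are the short members, where the share without reads lies between 42.2% and 65.5% and the median RPKM is 0 below 400 nt.

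The median RPKM of the members was 1.96 in Spn-E KD and 2.08 in Luc KD. Sequences of 500 to below 1000 nt had medians of 2.15 in Spn-E KD and 2.39 in Luc KD. Below 400 nt the median was 0 in each library, because members without a read outnumbered those with one. The 110 transposon-annotated gene models under 500 nt were covered more thinly still, with 0 reads in both libraries for 64.5% of them. The 1002 transposon-library sequences under 500 nt had median RPKM values of 5.64 in Spn-E KD and 6.30 in Luc KD. Level was part of the rule, and none of these medians carries a test.

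Reads were concentrated on a small number of members. The members together received 2457 reads in Spn-E KD and 2494 in Luc KD. The 10 with the highest mean RPM took 494 of these in Spn-E KD (20.1%) and 510 in Luc KD (20.4%). The 49 members with a mean of at least 10 RPM took 45.8% in Spn-E KD and 47.5% in Luc KD. Below them, 131 members lay at 3 to below 10 RPM, 187 at 1 to below 3 RPM and 290 above 0 but below 1 RPM.

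KWMTBOMO00974 (415 nt) was the most covered member, with 92 reads (86.8 RPM) in Spn-E KD and 90 reads (88.9 RPM) in Luc KD. Among members of at least 10 RPM it was also the highest per kb, at 209 RPKM in Spn-E KD and 214 in Luc KD. KWMTBOMO01068 (432 nt) had 80 reads (75.5 RPM) in Spn-E KD and 64 reads (63.2 RPM) in Luc KD. KWMTBOMO01381 (357 nt), next per kb, had 72 reads (190.4 RPKM) in Spn-E KD and 63 reads (174 RPKM) in Luc KD. KWMTBOMO12706 (475 nt) had 50 reads (47.2 RPM) in Spn-E KD and 60 reads (59.3 RPM) in Luc KD. None of these 4 passed the exact binomial test described below. KWMTBOMO00974 had a log2 fold change of −0.033, KWMTBOMO01068 one of 0.25, KWMTBOMO01381 one of 0.13 and KWMTBOMO12706 one of −0.32. Their log2 ratios of reads had wide intervals, which for KWMTBOMO00974 ran from −0.47 to 0.40 (95% Clopper-Pearson) and for KWMTBOMO12706 from −0.90 to 0.24.

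**Figure D2:**
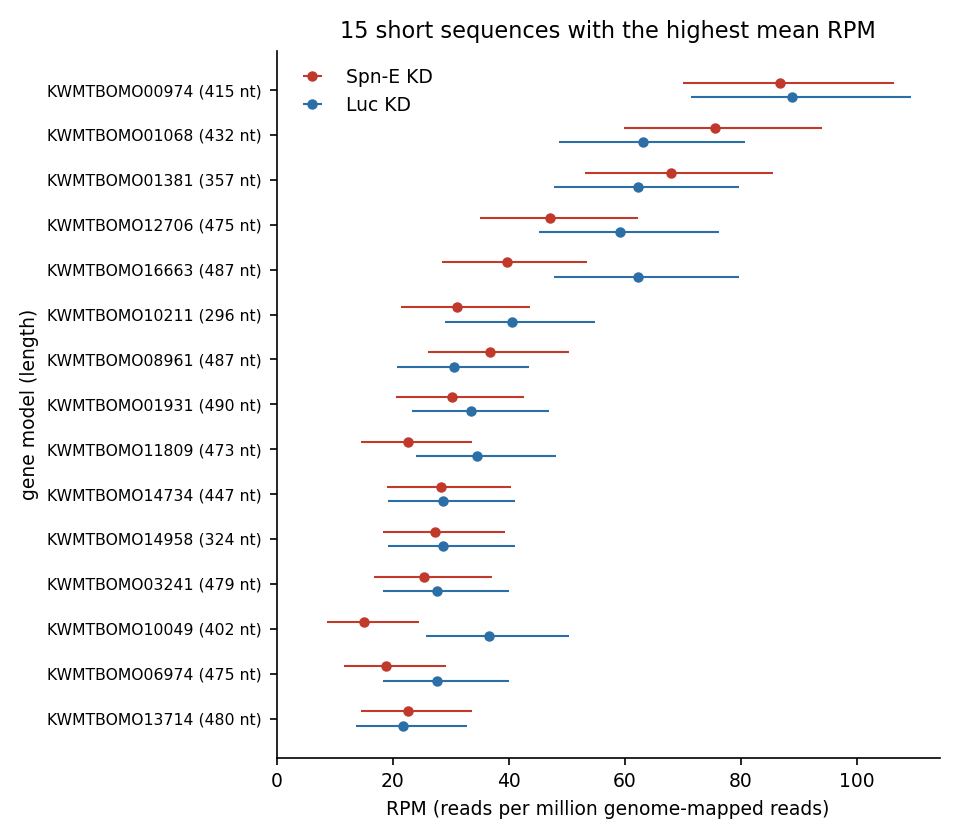
RPM in Spn-E KD and Luc KD of the 15 short sequences with the highest mean RPM, ordered by that mean, with length in nt. Points are the pooled libraries and bars are exact 95% Poisson intervals of counting error. The bars of KWMTBOMO10049, at 15.1 RPM in Spn-E KD and 36.6 RPM in Luc KD, do not meet, and those of the others overlap.

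The RPM limit left out 5 short protein-coding sequences, which together held 1551 reads in Spn-E KD and 1472 in Luc KD. KWMTBOMO12460 (364 nt), the nearest to the limit from outside, had 109 RPM in Spn-E KD and 101 RPM in Luc KD. KWMTBOMO00974 was the nearest from inside, with a mean of 87.9 RPM. With the 5 restored, the short set held 9.14 RPM per kb in Spn-E KD and 9.47 in Luc KD. Without the limit, sequences of 500 to below 1000 nt held 9.09 RPM per kb in Spn-E KD and 10.1 in Luc KD. KWMTBOMO03951 (459 nt), another of the 5, had 577 RPM in Spn-E KD and 487 RPM in Luc KD, and was named after its values were seen.

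The next comparison asked how reads on single short sequences differed after depletion of Spn-E. Fold changes are given as log2((Spn-E KD RPM + 1)/(Luc KD RPM + 1)), a scale on which low sequences appear to change less than they did. A mean of 10 RPM or more was reached by 4727 sequences of the table, of which 49 were members (5.01% of the 979). Their reads were compared by an exact binomial test, two-sided, and p-values were adjusted over all 4727 by the Benjamini-Hochberg method. Such a test compares the pooled libraries, not the conditions. It called 3 of the 49 members (6.12%), of which 3 were lower and 0 higher. Among all tested sequences it called 12.0%, with 3.74% higher and 8.23% lower. Among tested protein-coding sequences it called 8.44%, with 1.13% higher and 7.31% lower. The share of members called was thus near that of protein-coding sequences.

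KWMTBOMO11858 (472 nt) had 4 reads (3.78 RPM) in Spn-E KD and 20 reads (19.8 RPM) in Luc KD. Its log2 fold change was −2.12 (adjusted p = 0.00963, exact binomial test), and the log2 ratio of its reads had a 95% Clopper-Pearson range of −4.40 to −0.81. KWMTBOMO15594 (359 nt) had 7 reads (6.61 RPM) in Spn-E KD and 22 reads (21.7 RPM) in Luc KD. Its log2 fold change was −1.58 (adjusted p = 0.0403, exact binomial test), with a range of −3.19 to −0.44. KWMTBOMO10049 (402 nt) was named after its values were seen, because only 3 members were called. It had 16 reads (15.1 RPM) in Spn-E KD and 37 reads (36.6 RPM) in Luc KD. Its log2 fold change was −1.22 (adjusted p = 0.0239, exact binomial test), with a range of −2.22 to −0.39. Under the authors' scaling each of the 3 was lower in Spn-E KD beyond counting error. KWMTBOMO15594 and KWMTBOMO10049 lost the call under each of 4 other scalings (adjusted p of 0.0777 to 0.167, exact binomial test), while KWMTBOMO11858 kept it (0.0226 to 0.0402). When the pooled libraries were assumed to vary with a coefficient of 0.1, edgeR's exact test called 0 members, with 7 (14.3%) at an unadjusted p under 0.05, and KWMTBOMO11858 had an adjusted p of 0.0587. In that setting it called 4.04% of all tested sequences and 2.29% of protein-coding ones, with 16.6% and 13.3% of these sets at an unadjusted p under 0.05.

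The exact binomial test called 0 members higher in Spn-E KD, and with no RPM limit it called 1 of 54 short sequences higher. That sequence, KWMTBOMO03951, passed narrowly, at an adjusted p of 0.0476 by the exact binomial test, and its log2 fold change was 0.24. At an unadjusted p under 0.05 there were 8 members (16.3%), of which 2 were higher (4.08%) and 6 lower (12.2%). The shares at that p were 6.30% higher and 17.5% lower in all tested sequences, and 2.54% higher and 17.6% lower in tested protein-coding ones. The 2 higher ones, KWMTBOMO00194 (485 nt) and KWMTBOMO12156 (416 nt), had equal reads, 19 (17.9 RPM) in Spn-E KD and 7 (6.92 RPM) in Luc KD. For each the log2 fold change was 1.26, with an adjusted p = 0.149 by the exact binomial test, and both were named after their values were seen. The tested members had a median of 36 reads over both libraries, at which only large changes could be called. The smallest fall that the test could call at a member's own total had a median log2 fold change of −1.49 over the 49 members, and the smallest rise a median of 1.47.

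Of the 49 tested members, 2 (4.08%) differed by 2-fold or more upward and 5 (10.2%) downward. The same shares were 3.13% upward and 9.54% downward in all tested sequences, and 1.98% and 9.99% in tested protein-coding ones. By level, 2 of 32 members were called at 10 to below 20 RPM, against 2.64% of 1858 other protein-coding sequences. At 20 to below 50 RPM 1 of 12 members was called, against 9.23% of 1148. At 50 to below 100 RPM 0 of 5 members were called by the exact binomial test, with 1 at an unadjusted p under 0.05, against 18.5% of 298. With so few members in each band, these shares do not separate the short sequences from the longer ones.

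**Figure D3:**
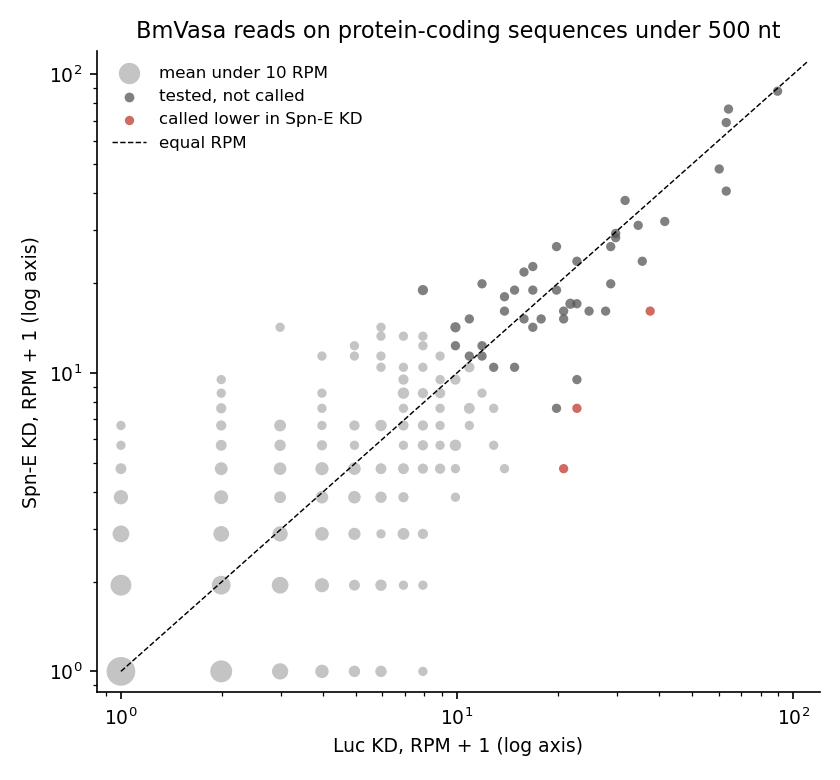
RPM + 1 in Spn-E KD (vertical) against Luc KD (horizontal) for the 979 short protein-coding sequences, both on log axes. Sequences with the same pair of read numbers share a point, whose size grows with their number. Grey points lie below a mean of 10 RPM, dark points were tested and not called, and the 3 red points were called lower in Spn-E KD.

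The tested members centred near equal RPM. Their median log2 fold change was −0.062, with quartiles of −0.42 and 0.26 and a range of −2.12 to 1.26. The median was −0.30 over the 3495 other tested protein-coding sequences, 0.24 below that of the members, and −0.24 over all tested sequences. Of the members, 20 of 49 (40.8%) had more RPM in Spn-E KD than in Luc KD, against 28.7% of other protein-coding and 34.5% of all tested sequences. The sign of the member median depended on how the libraries were scaled. It was 0.16 after centring on all tested sequences, and 0.15 under TMM. Across the 49 members, which are not replicates, Pearson's r of log2(RPM + 1) between the libraries was 0.69.

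Summing reads brought in all 979 members, low ones included. The sum was lower in Spn-E KD, and the log2 ratio of RPM sums was −0.087 (95% Clopper-Pearson −0.17 to −0.0062). With the 5 sequences above the RPM limit restored it was −0.050 (−0.11 to 0.013), within counting error. Longer protein-coding sequences under the same RPM limit were lower by more. Their log2 ratio was −0.18 (−0.21 to −0.15) at 500 to below 1000 nt, −0.27 (−0.29 to −0.25) at 1000 to below 2000 nt, −0.33 (−0.35 to −0.30) at 2000 to below 4000 nt and −0.35 (−0.39 to −0.32) at 4000 nt or more. With no RPM limit the same classes stood at −0.16, −0.29, −0.32 and −0.31, so the longest was then not the lowest. Under the limit the short set exceeded the class of 500 to below 1000 nt by 0.095 (95% Woolf interval 0.0097 to 0.18) and the class of 4000 nt or more by 0.26 (0.18 to 0.35). Both differences exceeded counting error, the first by little. Neither was compared with the spread between replicates. These differences do not move with the scaling of the libraries, whereas the sign of the short set's own ratio does, since every other scaling tried shifted it by 0.17 or more.

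**Figure D4:**
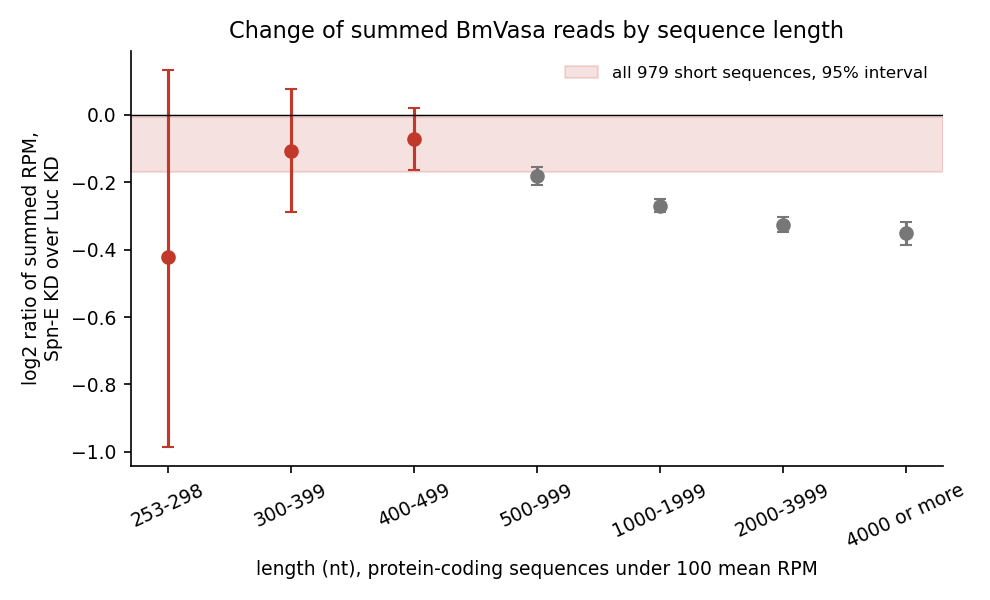
Log2 ratio of summed RPM, Spn-E KD over Luc KD, by length in nt, for protein-coding sequences below a mean of 100 RPM. Red points are length classes of the short members, grey points longer sequences, bars 95% Clopper-Pearson intervals, and the band the interval for all 979 members. The grey points lie between −0.18 and −0.35, lower in each longer class, and under the authors' scaling the band lies between −0.17 and −0.0062.

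Within the short set no order by length was measurable. The log2 ratio of summed RPM was −0.42 (−0.99 to 0.13) for the 29 members below 300 nt, −0.11 (−0.29 to 0.076) for those of 300 to below 400 nt and −0.072 (−0.16 to 0.020) for those of 400 nt or more. These intervals overlap and each includes 0. From transposon sequences below the same length limit no difference beyond counting error was measured. Against the transposon-library sequences under 500 nt, which were shorter, with a median of 228 nt, the difference was 0.032 (−0.066 to 0.13). Against the transposon-annotated gene models under 500 nt, which held 124 reads in Spn-E KD and 112 in Luc KD, it was −0.17 (−0.55 to 0.21).

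Because short sequences had fewer reads, the ratio was also taken within bands of level. At 3 to below 10 RPM the 131 members had 762 reads in Spn-E KD and 722 in Luc KD, a log2 ratio of 0.012 (−0.14 to 0.16). The 957 sequences of 500 to below 1000 nt in that band had −0.24 (−0.29 to −0.19), and the members exceeded them by 0.25 (95% Woolf interval 0.096 to 0.41). In the other 3 bands the difference was smaller than its counting error. It was −0.041 (−0.36 to 0.28) above 0 and below 1 RPM, 0.047 (−0.18 to 0.27) at 1 to below 3 RPM and 0.028 (−0.095 to 0.15) at 10 to below 100 RPM. The order among longer classes also varied with level. At 3 to below 10 RPM the 4 longer classes lay between −0.24 and −0.23, whereas at 10 to below 100 RPM the ratio was −0.17 at 500 to below 1000 nt and −0.37 at 4000 nt or more.

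**Figure D5:**
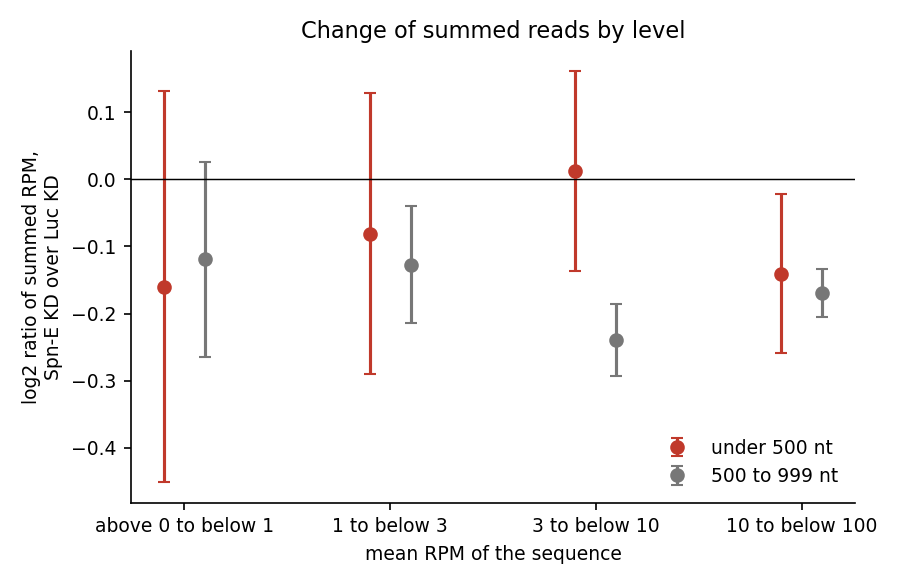
Log2 ratio of summed RPM, Spn-E KD over Luc KD, by band of mean RPM, for protein-coding sequences under 500 nt (red) and of 500 to below 1000 nt (grey), with 95% Clopper-Pearson intervals. The sets separate at 3 to below 10 RPM, at 0.012 and −0.24, and their intervals overlap in the other bands.

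As a share of protein-coding reads, the short set took 1.57% in Spn-E KD (95% Wilson interval 1.51 to 1.63) and 1.38% in Luc KD (1.33 to 1.44). The difference was 0.185 percentage points (95% Newcombe interval 0.103 to 0.267). Its direction turned on wider bases. Of all gene-library reads the short set took 0.610% in Spn-E KD and 0.649% in Luc KD, a difference of −0.040 points (−0.075 to −0.0049). This base includes the most abundant sequence, with 110071 reads in Spn-E KD and 69130 in Luc KD. Scaling to gene-library reads without it raised log2 ratios by 0.17 relative to genome-mapped reads. The short set's own log2 ratio was −0.087, so its lower share of gene-library reads depended on that sequence. Of genome-mapped reads the short set took 0.232% in Spn-E KD and 0.246% in Luc KD, a difference of −0.014 points (−0.028 to −0.0011).

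Short members often had consecutive identifiers. Of the 979 members, 204 (20.8%, 95% Wilson interval 18.4 to 23.5) had a member under the preceding or following number, against 10.8% (10.3 to 11.3) of 13316 protein-coding sequences of 500 nt or more. Of the 4328 sequences of 500 to below 1000 nt, 12.5% (11.6 to 13.6) had a member next to them. How often longer sequences stood next to others of their own length class was not counted. Members next to each other count for one another, so the 204 are not separate draws and their interval is too narrow. They lay in 93 runs of at least 2 consecutive numbers. The longest was of 5, KWMTBOMO06384 to KWMTBOMO06388 (388 to 467 nt), with 5 reads in Spn-E KD and 2 in Luc KD. A read in either library was found for 66.7% of members in runs and 67.2% of the others. A transposon-annotated gene model stood next to 22.1% of members (19.6 to 24.8) and 22.4% of the longer sequences (21.7 to 23.1). How these numbers relate to genome position is not given in the sources used here.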

How the data were processed

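FAST-iCLIP libraries of BmVasa came from 2 samples each of Spn-E KD and Luc KD cells. The authors trimmed adaptors (Cutadapt 4.0), discarded reads under 27 nt, collapsed PCR duplicates by their random barcode, mapped reads to the SilkBase genome (STAR 2.7.9a) and mapped these again to gene models and transposon sequences (Bowtie 1.3.1). Sense reads were taken with SAMtools 1.15, with versions as in the submitters' processing notes. Mapping used random and multiple modes, so near-identical sequences can share reads and their values are uncertain. Deposited counts hold 1 column per group, since replicates were merged. Deposited RPM values are counts scaled by the authors to genome-mapped reads, and deposited RPKM values divide these by length in kb. Identifiers are printed without the suffix that marks the transcript.

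Groups came from the sample labels. Members, lists and tests were chosen with earlier results of these data known. In the exact binomial test the expected share was set by genome-mapped reads, and an adjusted p under 0.05 was a call. All intervals are at 95% and hold no spread between replicates. Those of reads hold counting error alone, and those of shares of sequences treat each sequence as a separate draw. Named were the 4 members highest in mean RPM and the 2 highest in mean RPKM among those tested. Up to 2 rises and 2 falls among calls were named, as were sequences nearest to the limits, some of several tied at the length limit. Any other is marked as picked after its values were seen, or is the shortest member or an end of the longest run. Alternatives covered the length and RPM limits, the minimum level, the pseudocount, the base of shares, the scaling, effective length and an assumed variation in edgeR. The code was tested on simulated data. Versions were R 4.3.3 with edgeR 4.0.16, and Python 3.11.15 with scipy 1.17.1, statsmodels 0.14.6, pandas 2.3.3, numpy 2.4.6 and matplotlib 3.10.9.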

Additional observations from a re-analysis of the deposited data

How the results depend on the processing

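No paired analysis was possible because replicates were merged before deposit. Fits with a replicate block or without single replicates were not run for the same reason, and the spread between replicates is unmeasured. The difference of summed log2 ratios, its alternatives, the bands of level, the identifier counts and the share without called members were added after the data were seen.

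Of 49 tested members, 3 were called. The number was 1 for lengths below 400 nt (9 tested) and 8 for lengths below 600 nt (138 tested, with 1 higher and 7 lower). It was 2 at a minimum of 5 RPM (112 tested), 1 at a minimum of 20 RPM (17 tested) and 1 with no minimum (657 tested). It was also 1 of 49 under each of 4 other scalings. These were centring on all tested sequences, centring on protein-coding sequences, TMM, and gene-library reads less the most abundant sequence. Shares over all tested sequences are not given for these limits, minima and scalings, so these counts are not read as a result about the members. With assumed coefficients of variation of 0.1, 0.2 and 0.4, edgeR's exact test called 0 members each time, with 7, 3 and 0 at an unadjusted p under 0.05, and over all tested sequences 191 (4.04%), 8 (0.169%) and 0, with 783, 337 and 34 at that p. With no RPM limit 4 of 54 were called by the binomial test, 1 of them higher. Under these 4 scalings, in the same order, the median log2 fold change was 0.16, 0.22, 0.15 and 0.098. Its distance to other protein-coding sequences was 0.14 to 0.28 over the alternatives run.

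The difference in the share of protein-coding reads was 0.030 points (−0.0090 to 0.069) below 400 nt, within counting error, 0.503 below 600 nt and 0.36 with no RPM limit. These sets differ in size. In Spn-E KD their shares were 0.347%, 4.06% and 2.56%, in the same order, and in Luc KD 0.317%, 3.55% and 2.20%. The difference reversed to −0.040 points of gene-library reads, with the most abundant sequence included, and −0.014 points of genome-mapped reads. Without the 49 tested members it was 0.124 points. The summed log2 ratio exceeded that of 500 to below 1000 nt by 0.094 to 0.16 under the 6 alternatives that kept the length limit, and by 0.044 (−0.13 to 0.22), within counting error, below 400 nt.

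The share with 0 reads in both libraries was 39.4% below 400 nt and 27.8% below 600 nt. The median RPKM was 0 in each library below 400 nt, and over members with any read 3.42 in Spn-E KD and 3.53 in Luc KD. Of 63 values of the 7 named members under alternatives, 46 kept their side of the threshold and 17, all of the 3 called members, lost significance. The 46 include the values under other pseudocounts, which do not enter the test and so could not change side. They also include every value of the named members that were not called.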
